A study of Mus musculus with 9 samples.

Results

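Nacc1 was depleted in N2A cells, a mouse neuroblastoma line, and RNA from the knockdown (siNacc1) was set against RNA from cells that received a non-targeting pool (siNT). The comparison takes 1 library a side, both from the first of 2 experiments, and so uses 2 of the study's 9 libraries. The third library of that experiment came from cells depleted of Mbnl1 and Mbnl2 together (siMbnl1/Mbnl2) and shares the same siNT control. The second experiment holds knockdowns of Srrm4 and Zfp871 and its own non-targeting control, with 2 libraries each. In every group, N2A cells were given Dharmacon SMARTpool siRNAs with Lipofectamine RNAiMAX and collected after 48 hours, and polyA RNA was sequenced. RNA was prepared with either TriZol or a Qiagen kit, and the sources used here do not tie a method to a library. A pool of siRNAs against 1 gene was used with no second reagent, so loss of Nacc1 and effects of the pool on other transcripts cannot be told apart.

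Nacc1 encodes a nuclear protein with a BTB domain, through which it binds itself and partners such as histone deacetylases, and a BEN domain that contacts DNA. It acts mainly as a transcriptional repressor, was first described as a cocaine-responsive gene of the nucleus accumbens, and belongs to the protein network of pluripotent stem cells. Alternative splicing, in turn, is set by RNA-binding proteins: muscleblind proteins such as Mbnl1 and Mbnl2 promote or block cassette exons depending on where they bind, and Srrm4 promotes the very short exons called microexons that neurons include. The title of the series places the question between these layers, asking how transcription factors bear on networks of regulated exons.

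Total counts were 61038964 for siNacc1 and 63715449 for siNT, and the median measured cassette exon had 195 and 204 reads. With no replicate on either side no p-value is given, and intervals (95%, exact) cover counting error only. The size rule for a gene asked for 50 or more counts in siNacc1 or siNT and a log2 fold change of 1 or more, up or down. To show how far apart 2 libraries of 1 condition can lie, the control libraries a and b of the second experiment were compared by the same rules. Both tables were scaled separately, so levels set across the experiments are approximate. Both siNacc1 and siNT expressed the sympathetic neuroblast genes Hand2 (622 and 541 CPM, counts scaled to library size) and Ret (1016 and 1179 CPM). Not every such marker was present: of 34 genes listed for sympathetic and neuroblastoma identity, 32 were found and 26 reached the count minimum. In this list 3 genes had 0 counts in both libraries.

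Nacc1 (ENSMUSG00000001910) was the target and stood 4-fold lower. It had 3119 counts, or 52 CPM (50.2 to 53.8), in siNacc1 and 13108 counts, or 208 CPM (205 to 212), in siNT, a log2 fold change of -2.00 (-2.06 to -1.95). The other 3 libraries examined held 223 CPM (siMbnl1/Mbnl2), 263 (control a) and 251 (control b), so the siNacc1 library lay below all of them. Per length, the authors' deposited level was 12 cRPKM against 48.4. The paralog Nacc2 was close to the floor, with 31 and 44 counts. An 82-nt intron of the gene (mm9 chr8:87200158-87200239) was retained in 49.5% of informative reads (37.7 to 61.4, 74 reads) in siNacc1 and in 11.9% (8.1 to 16.6, 245 reads) in siNT. Retention was 3.58% and 5.80% in the controls a and b, so siNacc1 was the highest of these 4 libraries. By reads, the share moved with the loss of spliced transcripts: 37.4 spliced and 36.6 retained reads in siNacc1 stood beside 216 and 29.1 in siNT, so a change in splicing is not shown.

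Across the transcriptome far more genes stood lower than higher. Of 11580 genes measured, 392 passed the size rule (3.39%), 345 as lower (2.98%) and 47 as higher (0.406%), with a median log2 fold change over all genes of 0.01. The lower genes had a median of -1.31, and 91 of them were at least 3-fold lower. Between the 2 control libraries a and b, 356 of 11151 genes passed the same rule (3.19%), 260 higher in a (2.33%) and 96 higher in b (0.861%). The share of genes past the rule was thus about the same between siNacc1 and siNT as between 2 libraries of 1 condition. Of the 345 lower genes, 96 also passed between a and b, 89 of them as higher in a. Of the 47 higher genes, 7 did. Set against control a and control b as well, 288 of the lower genes lay below both and 46 of the higher genes lay above both. The difference from siNT is part of the rule itself, and the same share over all measured genes was not computed.

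The genes that were most clearly higher include a peptide hormone and both subunits of the serotonin-gated channel. Rln1, a relaxin, had 70 counts in siNacc1 and 5 in siNT, a log2 fold change of 3.42 (interval of the ratio 2.58 to 5.54). Its CPM was 1.17 against 0.0795 in siNT, 0.155 in siMbnl1/Mbnl2, 0.108 in control a and 0.0417 in control b, so the gene was scarce in every library. Htr3b, which encodes the B subunit of the serotonin receptor 3, had 5.90 CPM in siNacc1 and 1.00, 0.891, 0.758 and 2.06 CPM in the other libraries in the same order. Its log2 fold change was 2.52 (2.17 to 2.97), while the controls a and b differed by -1.40. Htr3a, the subunit that forms the channel, was abundant at 303 CPM against 135 in siNT (log2 fold change 1.16) and at 72.3, 113 and 176 CPM in the rest. Both subunits were thus highest in siNacc1 among the 5 libraries.

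Capn6, a calpain-family protein that lacks protease activity, had the highest level of the higher genes. It stood at 729 CPM in siNacc1 and 296 in siNT (log2 fold change 1.30, 1.28 to 1.33), with 508, 456 and 377 CPM in siMbnl1/Mbnl2, control a and control b. Every other library lay between the values of siNT and siNacc1, so part of the difference is that siNT was the lowest of the 4 libraries without Nacc1 siRNA. Dok4, a docking protein downstream of receptor tyrosine kinases, stood at 275 CPM against 128 in siNT and 99.5 to 138 in the other libraries (log2 fold change 1.10). Msl3l2 had 13.7 CPM against 3.99 (1.77) and G0s2, an inhibitor of triglyceride lipase, 1.72 against 0.239 (2.69). The rest of the 15 most clearly higher genes were Runx1t1, a corepressor (2.00), Padi2, Igfbp6, 4833442J19Rik, Slc16a14, Fxyd6, Flrt3 and Tmem151b, at 1.22 to 2.00. Padi2 was also higher in control a than in b (1.76). Padi2 and Igfbp6 also passed the rule as higher in siMbnl1/Mbnl2 against the same siNT, at 1.29 and 1.07.

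**Figure D1:**
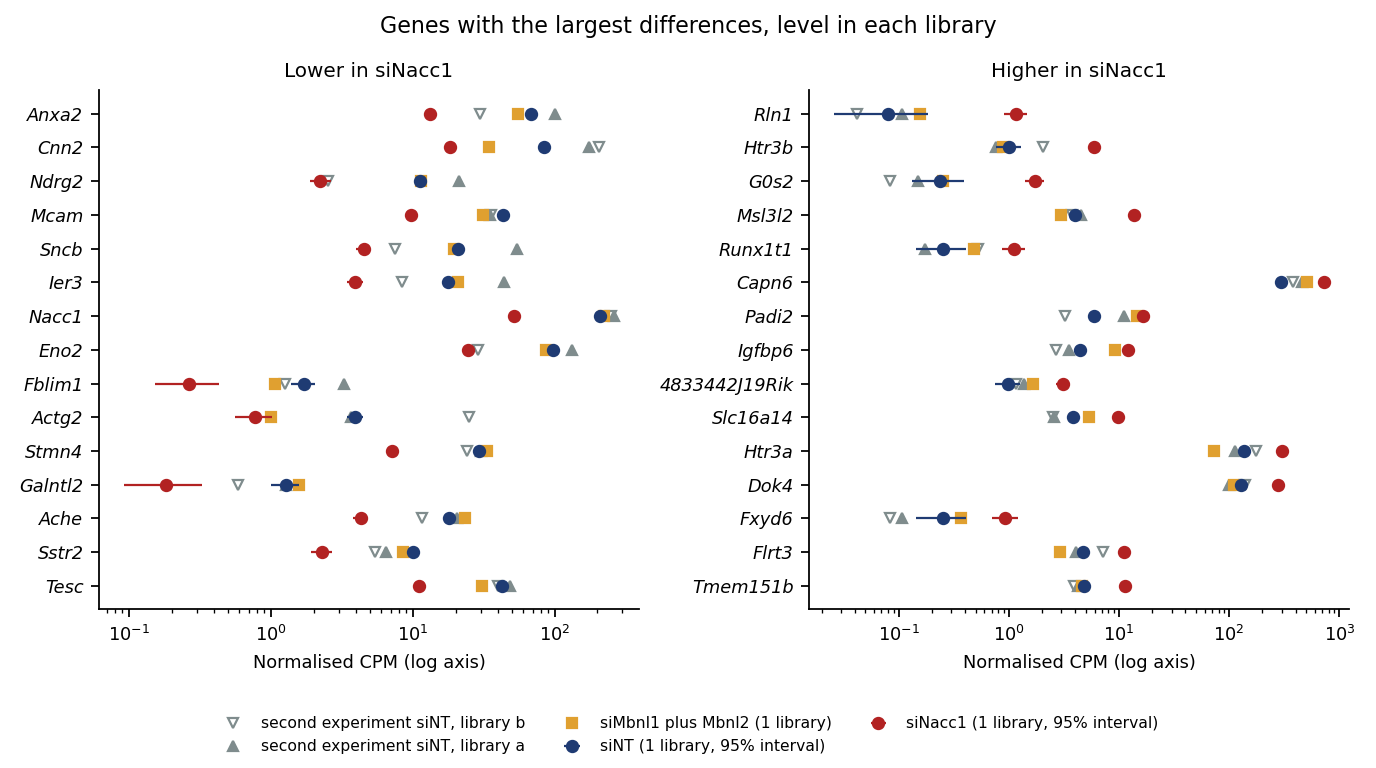
Normalised CPM on a log axis for the 15 most clearly lower genes (left) and the 15 most clearly higher genes (right), ranked by the bound of the ratio interval nearest to no change. Red and blue points with 95% exact Poisson intervals are siNacc1 and siNT, squares are siMbnl1/Mbnl2 and triangles the controls a and b of the second experiment, scaled separately. The red point lies outside all 3 control libraries for each of the 30 genes, and for Ndrg2, Sncb and Eno2 control b lies close to it. The distance between the red point and siNT is part of the rule by which the genes were chosen.

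The 15 most clearly lower genes included Anxa2, Cnn2, Mcam and Tesc. Anxa2, a calcium-dependent membrane and actin binder, had 798 counts in siNacc1 and 4250 in siNT, a log2 fold change of -2.34 (-2.46 to -2.24). Its CPM was 13.3 against 67.6, with 55.3 in siMbnl1/Mbnl2, 101 in control a and 29.9 in control b. Cnn2, the actin-binding calponin, stood at 18.2 CPM against 84 in siNT (-2.20), with 34.6, 176 and 207 CPM in the others. Mcam, an adhesion molecule, stood at 9.63 CPM and at 43.4, 31.4, 34.9 and 35.3 CPM in the other 4 libraries (-2.17), which lay close together. Tesc, a calcium-binding protein, was at 11 CPM against 42.2 (-1.94) and 30.9 to 48.6 CPM elsewhere. Mcam and Tesc are among the lower genes whose controls a and b differed little, by -0.02 and 0.29, where Anxa2 differed by 1.76. Fblim1, a link between filamin and adhesions, was at 0.267 CPM in siNacc1 and at most 3.29 in the other libraries. The smooth muscle actin Actg2 stood at 0.766 CPM against 3.93 in siNT, at 1.01 CPM in siMbnl1/Mbnl2, and at 3.64 and 24.7 CPM in the controls a and b. Both passed the rule between a and b as well.

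Stmn4, Ache, Sstr2 and Sncb, genes of nerve cells, were also among these 15. Stmn4, a stathmin that regulates microtubules, stood at 7.10 CPM against 29.2 in siNT, 33.3 in siMbnl1/Mbnl2, 30.4 in control a and 24.2 in control b (log2 fold change -2.04). Ache, the acetylcholinesterase, stood at 4.30 CPM against 18.1 (-2.06), and Sstr2, a somatostatin receptor, at 2.28 against 9.99 (-2.11). In each of these 3 genes siNacc1 was below every other library. Sncb, beta-synuclein, was 4.52 CPM against 20.9 (-2.20), but it was also 54.1 CPM in control a and 7.46 in control b. Of the 48 measured members of a neuronal list, 0 were higher and 3 were lower (Sncb, Stmn4 and the kinase subunit Camk2b), beside 2.98% lower of all genes. Of these, Sncb and Camk2b also passed between a and b, and Camk2b stood at 1.35 CPM in siNacc1 and 1.86 in control b. The list's median was -0.24, beside 0.01 over all genes, and 43 of the 48 members had a value below 0. In an axon guidance list, 3 of 29 were lower (Slit1 -1.72, Unc5a -1.44, Sema3f -1.42) and 0 higher, with a median of -0.18. Slit1 and Unc5a also passed between a and b, by 2.07 and 1.24, and Slit1 was lower in control b (0.396 CPM) than in siNacc1 (0.50). Among 26 members of the sympathetic and neuroblastoma identity list 0 passed. Its largest values were Nes, nestin, at -0.96 and Lin28b, an RNA-binding protein of stem cells, at 0.87, or 186 CPM against 101 in siNT and 83.6 to 122 CPM in the other libraries.

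Matrix and TGF-beta genes formed the group with the most members past the rule that did not also pass between the controls. Of 31 measured, 8 were lower and 0 higher, beside 2.98% lower and 0.406% higher of all genes, with a median of -0.45. Of the 8 lower members, 1 also passed between a and b. Timp2, an inhibitor of matrix metalloproteinases, had 2.78 CPM in siNacc1 and 9.86 in siNT (-1.81), with 5.10, 15 and 18.3 CPM in siMbnl1/Mbnl2 and the controls a and b. Timp3 was at -1.60, and the ligands Tgfb1 and Tgfb3 at -1.67 and -1.56. Cyr61, a matricellular protein, was at -1.32 and the integrins Itga3 and Itga1 at -1.28 and -1.20. These 7 genes did not pass between a and b, but Tgfb1 and Tgfb3 came close to the threshold there, at 0.93 and -0.93. Timp3 and Tgfb3 were low in siMbnl1/Mbnl2 too, at -1.32 and -1.10 against the same control. The ligand Tgfb2 went the other way, at 0.71, and did not pass. Among muscle and contractile markers, 3 of 7 were lower (Myl9 -1.38, Acta2 -1.36, Tpm2 -1.08). In siMbnl1/Mbnl2, against the same siNT, Myl9 and Acta2 were lower still, at -2.11 and -3.06, and Tpm2 stood at -0.33. Acta2 also passed between a and b, by -1.99 (3.55 and 14.3 CPM). The list's summed level was 92.7 CPM in siNacc1, 152 in siNT, 101 in siMbnl1/Mbnl2 and 214 and 267 in the controls, and whether the number of cells with contractile features moved with the knockdown was not tested. In bulk RNA, fewer cells of a type and less RNA per cell cannot be told apart.

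Glycolysis and hypoxia genes were lower as a group, and the same genes set the 2 control libraries of the second experiment further apart. Of 31 measured members, 10 were lower and 0 higher, beside 2.98% lower and 0.406% higher of all genes. In this list 29 had a value below 0, with a median of -0.50, beside a median of 0.01 over all genes. Slc16a3, a lactate exporter, stood at 111 CPM in siNacc1 and 369 in siNT (-1.73), against 286 in siMbnl1/Mbnl2, 584 in control a and 122 in control b. Eno2, an enolase, stood at 24.4 CPM and at 97.2, 87.2, 133 and 28.9 CPM in that order (-1.99). The hypoxia-induced Ankrd37 (-2.00), Aldoc (-1.97), Adm (-1.90), Ndrg1 (-1.83), Pdk1 (-1.70) and Bnip3 (-1.57) followed, with the glucose transporter Slc2a1 at -1.17 and P4ha1 at -1.02. All 10 also passed the rule between control a and b, by 1.13 to 3.81, and the list's median there was 0.85. For these genes the level in siNacc1 was near that of control b, and the part of the knockdown in this difference was not tested.

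**Figure D2:**
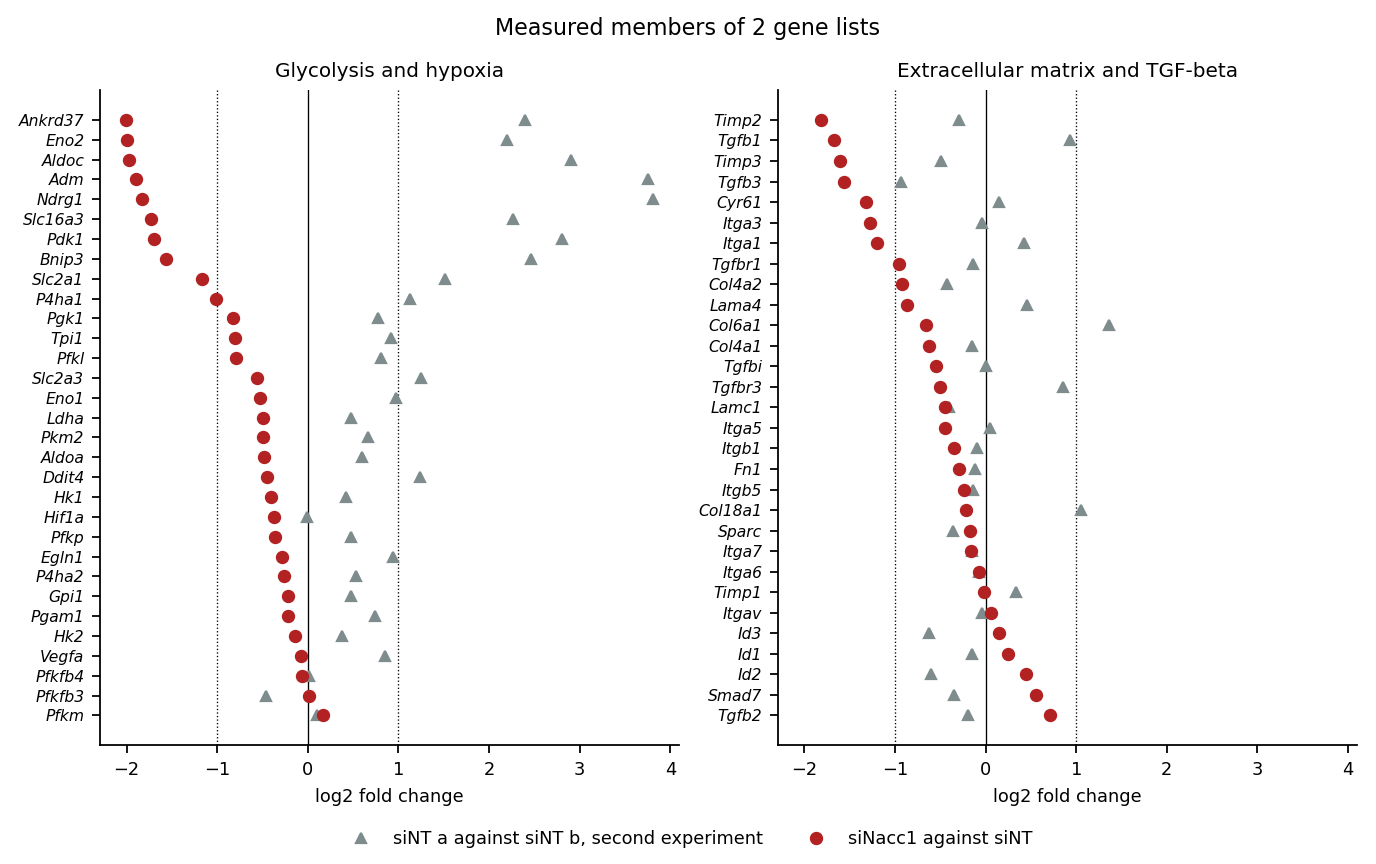
Log2 fold change of 31 measured members of the glycolysis and hypoxia list (left) and 30 of the extracellular matrix and TGF-beta list (right). Red circles are siNacc1 against siNT and grey triangles control a against control b of the second experiment, and dotted lines mark a log2 fold change of 1 in size. On the left the 10 genes below -1 have triangles from 1.13 to 3.81. On the right the triangles of the 7 genes below -1 lie within the dotted lines, those of Tgfb1 and Tgfb3 close to them. The list's remaining lower member, which also passed between the controls, is not plotted.

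Smaller numbers of genes passed in other programmes. In the immediate early and MAP kinase feedback list 4 of 32 were lower, beside 2.98% of all genes: Ier3 (-2.16), the phosphatase Dusp4 (-1.16), Jund (-1.12) and Phlda1 (-1.01). Ier3 also differed between a and b, by 2.38, while Jund, a subunit of the AP-1 factor, stood at 33.7 CPM against 73, 73.2, 66.9 and 60.2 CPM in siNT, siMbnl1/Mbnl2, control a and control b. Among p53 targets 1 of 25 was higher, Sesn2 (1.03, 187 CPM against 91.8), a stress-induced sestrin that also belongs to the amino acid response list, and 1 was lower, Btg2 (-2.22), which also passed between a and b (1.65). Of 43 unfolded protein and amino acid response genes, Sesn2 was higher and Creb3l2 was lower (-1.12). In the interferon list 1 of 15 was lower (Psmb8, -1.33).

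No member passed in the lists closest to Nacc1 itself. Of 27 BTB proteins and corepressor partners 0 passed, with values from -0.84 (Bcl6) to 0.55. In lists of this size, 0 is near the 3.39% of all genes that passed. Of 12 pluripotency network genes 0 passed, with a median of 0.17. Neither did any of 45 DNA replication genes, although 41 of them had a value above 0 and the median was 0.22; the largest were the cell cycle activator E2f1 at 0.56 and Rrm2, a subunit of ribonucleotide reductase, at 0.54. The mitosis (33 measured, median 0.03), cholesterol synthesis (37, -0.19), oxidative phosphorylation (47, 0.10) and ribosomal protein (54, 0.07) lists held 0 genes past the rule.

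Among markers of other cell types, 1 of 4 measured glial markers was lower, Pmp22, beside 2.98% of all genes. The glial markers summed to 58 CPM in siNacc1, 161 in siNT, 199 in siMbnl1/Mbnl2 and 178 and 123 in the controls, and 137 of the CPM in siNT came from Pmp22, a myelin protein also made outside glia (39.2 against 137 CPM, -1.81). The defining glial genes Gfap (2 and 5 counts), Sox10 (2 and 0) and Aqp4 (0 and 0) were at or near 0. Epithelial markers summed to 35.8 and 39.3 CPM and immune markers to 8.53 and 13.7 CPM. Of their measured members, 0 of 3 and 0 of 2 passed the rule, beside 3.39% of all genes.

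No splicing regulator passed the size rule, and Mbnl1 had the third largest difference among the tissue-regulated factors. Of these 34 factors 0 passed, beside 3.39% of all genes. Celf5 and Celf4, RNA-binding proteins of neurons, were at -0.99 and -0.87. Mbnl1 had 4964 counts, or 82.7 CPM (80.4 to 85), in siNacc1 and 7811 counts, or 124 CPM, in siNT, a log2 fold change of -0.59 (-0.64 to -0.54). It stood at 102 and 123 CPM in the controls a and b and at 45.2 in siMbnl1/Mbnl2, so siNacc1 lay between the controls and the direct knockdown. Mbnl2 was the same within counting error (65.6 and 65.7 CPM, log2 fold change 0.00, -0.06 to 0.06). Srrm4 was at 0.03, its relative Srrm3 at 0.11, Ptbp1 at -0.02, Ptbp2 at 0.17 and Zfp871 at 0.19. None passed among 23 SR proteins, 28 hnRNP proteins and 45 core spliceosome genes, whose medians were 0.15, 0.07 and 0.13. Of 42 genes that host known Mbnl target exons, 2 were lower (Ndrg2 and the glutamate receptor subunit Grin1) and 0 higher, near the 2.98% lower of all genes, and Ndrg2 also passed between a and b (3.03). Of 63 host genes of neural microexons 0 passed.

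Exon inclusion is given as percent spliced in (PSI), the share of reads at an exon that include it. For a cassette exon the size rule asked for 20 or more reads in each library of the first experiment, a PSI difference of 20 points or more and separate 95% intervals. Of 36175 exons measured 182 passed (0.503%), of which 136 were lower in siNacc1 (0.376%) and 46 were higher (0.127%), in 161 genes. Between the controls a and b, 68 of 35604 passed (0.191%), so the share past the rule was larger for siNacc1 against siNT than for 2 libraries of 1 condition. Of the 177 exons also measured in the second experiment, 171 had a PSI in siNacc1 outside both of its controls and 11 passed between them. The difference from siNT is part of the rule itself, and the same share over all measured exons was not computed. Set against the mean of those 2 controls instead of siNT, the lower exons were 156 and the higher ones 113. The authors' deposited table marks 144 of the 182 as differential and gives no value for the other 38.

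The sequences of exons that carry the results are printed here from GENCODE M21 transcripts (build GRCm38), matched to the mm9 events by gene, exon length and the distances to both neighbouring exons. Of 57 exons chosen by rule, 51 matched. Capitals mark the alternative exon, and lower case the last and first 12 bases of its neighbours.
Mbnl1 54 nt (chr3:60614683-60614736, plus strand): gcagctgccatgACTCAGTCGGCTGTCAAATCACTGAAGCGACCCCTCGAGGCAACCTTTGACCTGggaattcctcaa
Mbnl2 54 nt (chr14:120395712-120395765, plus strand): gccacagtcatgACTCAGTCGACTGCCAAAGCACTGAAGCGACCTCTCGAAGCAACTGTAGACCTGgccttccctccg
Mbnl2 36 nt (chr14:120403336-120403371, plus strand): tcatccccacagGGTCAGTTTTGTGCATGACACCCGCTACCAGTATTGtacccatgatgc
Numa1 42 nt (chr7:102002295-102002336, plus strand): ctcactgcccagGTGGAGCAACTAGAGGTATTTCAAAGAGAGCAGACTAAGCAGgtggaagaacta
Uap1 48 nt (chr1:170147996-170148043, minus strand): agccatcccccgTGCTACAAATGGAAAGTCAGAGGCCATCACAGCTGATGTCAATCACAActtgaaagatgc
Tead1 12 nt (chr7:112856053-112856064, plus strand): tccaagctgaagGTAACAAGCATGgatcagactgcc
Picalm 24 nt (chr7:90194273-90194296, plus strand): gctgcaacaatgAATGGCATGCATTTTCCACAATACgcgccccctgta
Dst 18 nt (chr1:34296742-34296759, plus strand): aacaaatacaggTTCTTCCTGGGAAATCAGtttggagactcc
Clasp1 27 nt (chr1:118523321-118523347, plus strand): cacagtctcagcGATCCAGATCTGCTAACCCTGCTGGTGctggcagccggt
The first 3 are exons of the muscleblind genes themselves, the next 2 had large falls with and without a like value in siMbnl1/Mbnl2, and the last 4 are microexons.

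Alternative exons of the splicing factors themselves were also examined. In the muscleblind transcripts 3 alternative exons were included more in siNacc1. The 54-nt exons of Mbnl1 and Mbnl2 share 46 of 54 bases (85.2%), and in both genes this exon is known to favour nuclear localisation and to be repressed by muscleblind proteins. In Mbnl1 its PSI was 84.8 (79.3 to 89.3, 218 reads) in siNacc1 and 59 (53.7 to 64.2, 353 reads) in siNT, with 96.3 in siMbnl1/Mbnl2 and 69.5 and 63.3 in the controls a and b. In Mbnl2 it was 79.1 (72.4 to 84.8) against 51.6 (43.2 to 59.9), with 80.5, 51.8 and 43.9 in that order. In both genes the 3 controls lay together and siNacc1 lay above them. The 36-nt exon of Mbnl2 stood at 34.5 (26.5 to 43.2) in siNacc1, against 8.07 in siNT and 12, 10.6 and 11.7 in the other libraries. Here the siMbnl1/Mbnl2 value rested on 27 reads. Its interval (2.78 to 30.3) holds the control values and overlaps that of siNacc1. These are 3 of the 83 alternative exons in genes of tissue-regulated splicing factors (3.61%), beside 1.16% of all 15625 alternative exons, those with a PSI from 2 to 98 in either library. Clk1, a kinase of SR proteins, had a 91-nt exon at 64.6 against 43.5, but the controls a and b stood at 58.8 and 80.6 and passed the rule between themselves.

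Exons past the rule were found in 16 genes of a list of known Mbnl targets. Of 177 alternative exons in 38 such genes, 14 were lower and 6 higher (11.3%, beside 1.16%). The list includes Mbnl1 and Mbnl2, so the 3 muscleblind exons given above are counted here again. The list was drawn up with earlier results of these data known, so it is a description and not independent evidence. The 42-nt exon of Numa1, which organises the spindle poles, fell from 70.7 (66.8 to 74.3) in siNT to 19.3 (16.2 to 22.7) in siNacc1, and stood at 8.95 in siMbnl1/Mbnl2 and 76.8 and 70 in the controls. The 130-nt exon of Itga6, the integrin alpha 6 chain, stood at 16.6 in siNacc1 against 68.9, with 7.08 in siMbnl1/Mbnl2 and 66.2 and 66.8 in the controls. In both, siNacc1 lay nearer to siMbnl1/Mbnl2 than to any control. Because siNacc1 and siMbnl1/Mbnl2 share siNT, the values are given side by side and no overlap of the comparisons is computed. Smaller falls of the same list included Kif13a (39 nt, 39.8 to 6.59), Git2 (90 nt, 45.1 to 13.3), Lrrfip2 (72 nt, 68.3 to 37.9), Spag9 (39 nt, 36.2 to 11.9), Ktn1 (69 nt) and Csnk1d (63 nt). Mapt, which encodes the microtubule protein tau, had 2 exons lower: an 87-nt exon at 8.49 against 31.9 and a 93-nt exon at 21.3 against 42.9. Apart from the muscleblind exons, the higher exons of the list lay in Exoc1 (45 nt, 66.7 to 97.2), Dgkh (126 nt, 42.2 to 71) and Clasp1.

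For other exons with large differences in siNacc1, the siMbnl1/Mbnl2 library lay near siNT; they are grouped here after their values were seen. The largest fall of all was a 48-nt exon of Uap1, the enzyme that makes UDP-N-acetylglucosamine (mm9 chr1:172078127-172078174). Its PSI was 28.1 (24 to 32.5, 447 reads) in siNacc1 and 86.5 (83.7 to 89, 677 reads) in siNT, with 88.5 in siMbnl1/Mbnl2 and 75.8 and 80.3 in the controls. Thus all 4 libraries without Nacc1 siRNA stood above 75 and siNacc1 far below. A 129-nt exon of Tsc2, a negative regulator of mTOR signalling, stood at 38.9 (31.3 to 47) against 86.2 in siNT, 85.5 in siMbnl1/Mbnl2, and 80.3 and 87.6. An 84-nt exon of Golim4, a Golgi protein, stood at 24.2 against 71.2, 67.9, 61.9 and 67.8 in the same order. Among higher exons, a 36-nt exon of the calcium channel Itpr1 stood at 54.9 (44.2 to 65.2) against 17.8, with 22.5, 28.1 and 25 in the other libraries. In these 4 exons siNacc1 stood apart from the other 4 libraries.

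The remaining large differences include exons where both knockdown libraries stood away from siNT. Tbc1d23 (45 nt) was at 32.3 against 87.7, Arhgef12 (57 nt) at 32.9 against 79.4 and Strada (29 nt) at 17 against 63, with siMbnl1/Mbnl2 at 37.6, 22.7 and 13.7. The first is a Golgi trafficking protein, the second activates small GTPases and the third is a pseudokinase partner of the kinase Lkb1. Of the rises, an 81-nt exon of Map3k7, the TGF-beta-activated kinase, stood at 69 (63.3 to 74.3) against 24 (17.6 to 31.4), with siMbnl1/Mbnl2 at 45.1 and the controls at 30.9 and 20. A 69-nt exon of Myt1, a neural zinc finger factor, stood at 74.4 against 36.5 and a 33-nt exon of the adhesion molecule Cadm1 at 80.5 against 43.8. Clip1 (105 nt, 48.2 against 9.13) and Tpm3 (76 nt, 80 against 35.2) were also higher. The Tpm3 values rested on 27 and 48 reads, with 48.6 in siMbnl1/Mbnl2 on 26 reads. A 176-nt exon of 1700012B15Rik stood at 32.5 against 87, with 77.8 in siMbnl1/Mbnl2. Fkbp7 (116 nt, 82.6 against 25.5) had the largest rise but rested on 42 and 59 reads. The 42-nt exon of Creb1 was at 100 in siNacc1 on 32 reads, and control b was at 100 as well.

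**Figure D3:**
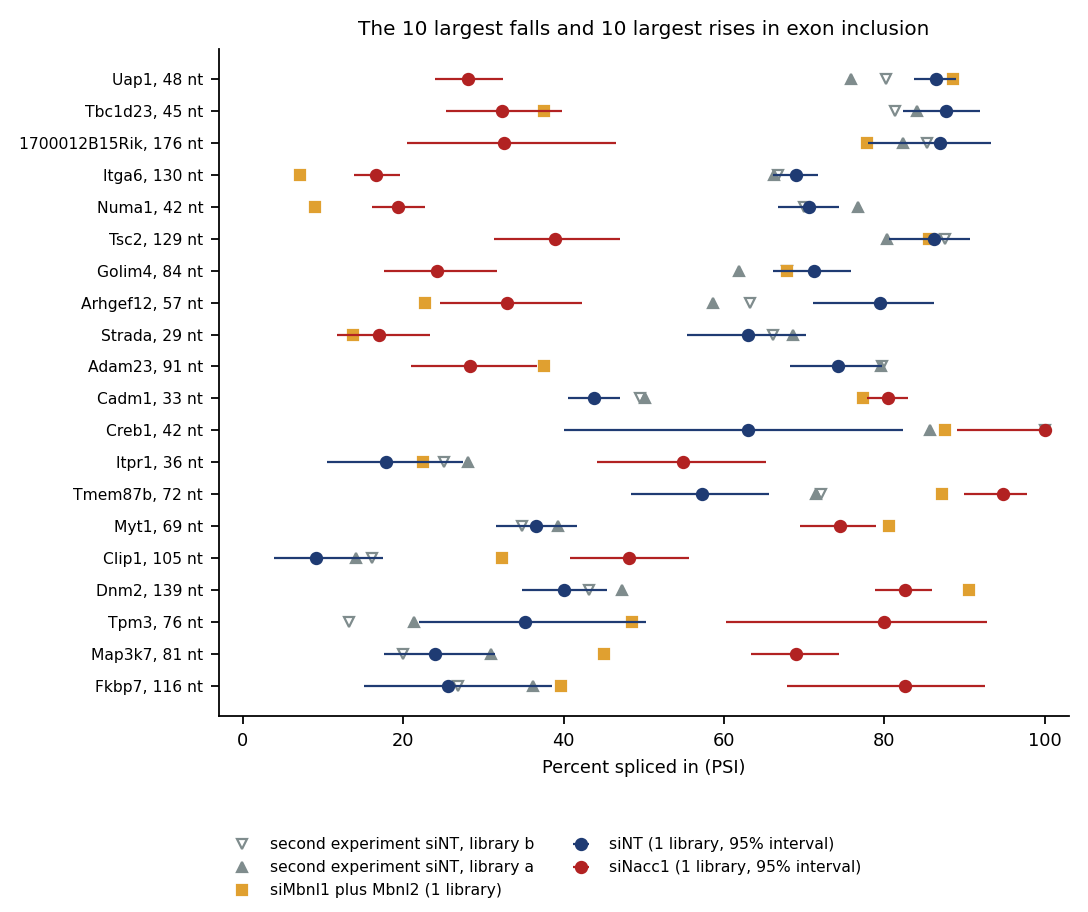
Percent spliced in (PSI) for the 10 cassette exons with the largest fall and the 10 with the largest rise, 1 per gene, in each library. Red and blue points with 95% exact intervals are siNacc1 and siNT, squares are siMbnl1/Mbnl2 and triangles the controls of the second experiment. For Uap1, Tsc2, Golim4 and Itpr1 the square lies with the controls, and for Itga6, Numa1, Arhgef12, Strada, Dnm2 and Myt1 it lies beyond the red point. In Creb1 the red point and control b coincide at 100.

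In 4 genes a pair of equally long exons moved in opposite directions. Dnm2, the GTPase dynamin 2 that pinches off vesicles, has neighbouring 139-nt exons that share 95 bases (68.3%):
Dnm2 upstream exon (chr9:21478899-21479037, plus strand): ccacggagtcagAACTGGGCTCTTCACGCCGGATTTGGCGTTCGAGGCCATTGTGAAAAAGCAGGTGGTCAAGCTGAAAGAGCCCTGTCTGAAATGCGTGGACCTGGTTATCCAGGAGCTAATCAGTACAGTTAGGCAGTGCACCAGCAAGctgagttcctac
Dnm2 downstream exon (chr9:21480407-21480545, plus strand): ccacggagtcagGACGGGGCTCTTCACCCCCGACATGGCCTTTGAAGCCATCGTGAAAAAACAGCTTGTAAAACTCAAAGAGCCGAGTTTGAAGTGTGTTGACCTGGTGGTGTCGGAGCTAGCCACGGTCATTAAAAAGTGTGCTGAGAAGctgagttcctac
Both are flanked by the same exons. The upstream exon had a PSI of 16.6 in siNacc1 and 61.7 in siNT, and the downstream exon 82.6 and 40. In siMbnl1/Mbnl2 they stood at 9.88 and 90.5, and in the controls a and b at 73.3 and 70.1 for the first and 47.2 and 43.2 for the second. Adam23, a metalloprotease-like adhesion protein of neurons, showed the same exchange between 91-nt exons with 54.9% identical bases: 51.8 against 21.1 for one and 28.3 against 74.3 for the other. The 76-nt exons of the actin-binding tropomyosin Tpm1 (56.6% identical) stood at 71.7 against 44 and at 31.7 against 58.2. In siMbnl1/Mbnl2 this pair was at 53.2 and 51. The fourth pair, 72-nt exons of Tmem87b, stood at 94.8 against 57.2 and at 12.2 against 33.3.

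Most microexons (3 to 27 nt) past the rule were lower. Of 418 alternative microexons, 18 were lower and 2 higher (4.78%), beside 2 past the rule between the controls a and b. In genes of a list of known neural microexon hosts, 7 of 281 alternative exons of any length were lower and 2 higher (3.20%). Of all alternative exons, 1.16% passed. Of 1195 exons from 28 to 51 nt, 19 were lower and 10 higher (2.43%), and of 14012 exons over 51 nt 99 were lower and 34 higher (0.949%). The median difference over all alternative microexons was -0.30 points, beside -0.40 over all alternative exons, so the microexons past the rule are a minority of their class. The 12-nt exon of Tead1, the DNA-binding partner of the Hippo pathway coactivator Yap, fell from 96 (92.7 to 98) to 54.3 (47.4 to 61), with 58.4 in siMbnl1/Mbnl2 and 98 and 97.3 in the controls. The 24-nt exon of Picalm, a clathrin assembly protein, stood at 5.55 (3.82 to 7.75) against 44.9 (41.2 to 48.6), with 7.40, 36.9 and 35 elsewhere. In Dst, the cytoskeletal linker dystonin, an 18-nt exon stood at 56.8 against 92.3, with 10.2 in siMbnl1/Mbnl2. Ank2, an ankyrin of the neuronal membrane skeleton (12 nt, 27.5 against 57.3), Celsr3, a cadherin of axon guidance (15 nt, 62.4 against 96.3), the kinesin Kifc3 (27 nt, 57.1 against 86.6) and the centrosome protein Pcnt (21 nt, 70.2 against 94.2) were lower still in siMbnl1/Mbnl2, at 3.87, 43.4, 33.8 and 36.1. So were the 21-nt exon of the junction protein Mllt4 (27.7 against 56.3, with 9.55 in siMbnl1/Mbnl2) and the 9-nt exon of Ap1b1, an adaptor of clathrin coats (25.6 against 46.8, with 14.3).

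For the microexons of Mast2, Ppfia3, Dtnb and Snx14 the siMbnl1/Mbnl2 library lay nearer to siNT than to siNacc1. The 21-nt exon of Mast2 stood at 27.8 against 58.3, with 69.6 in siMbnl1/Mbnl2. Ppfia3, a liprin of the synapse (27 nt, 19.1 against 44.1), Dtnb (21 nt, 53 against 77.2) and the sorting nexin Snx14 (27 nt, 49.2 against 71.4) had 40.1, 80.9 and 66 there. Values between those of siNacc1 and siNT were found there for Csnk1g3 (24 nt, 67.9 against 90.7, with 76.9) and Zfyve27 (21 nt, 42.1 against 63.3, with 53.2). The 27-nt exon of Heatr5a had no inclusion read among 65 reads in siNacc1 (95% upper bound 5.52), against 24.7 in siNT, and siMbnl1/Mbnl2 at 3.74 lay near siNacc1. The 2 higher microexons were in Clasp1, which stabilises microtubule ends (27 nt, 73.3 against 39.2), and in the dynactin subunit Dctn4 (21 nt, 79.8 against 47.9), with 77.7 and 67.4 in siMbnl1/Mbnl2. For Gpatch8 (18 nt) siNT stood apart instead: siNacc1 was at 16.1, siNT at 42 and the controls a and b at 14.7 and 16.1.

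**Figure D4:**
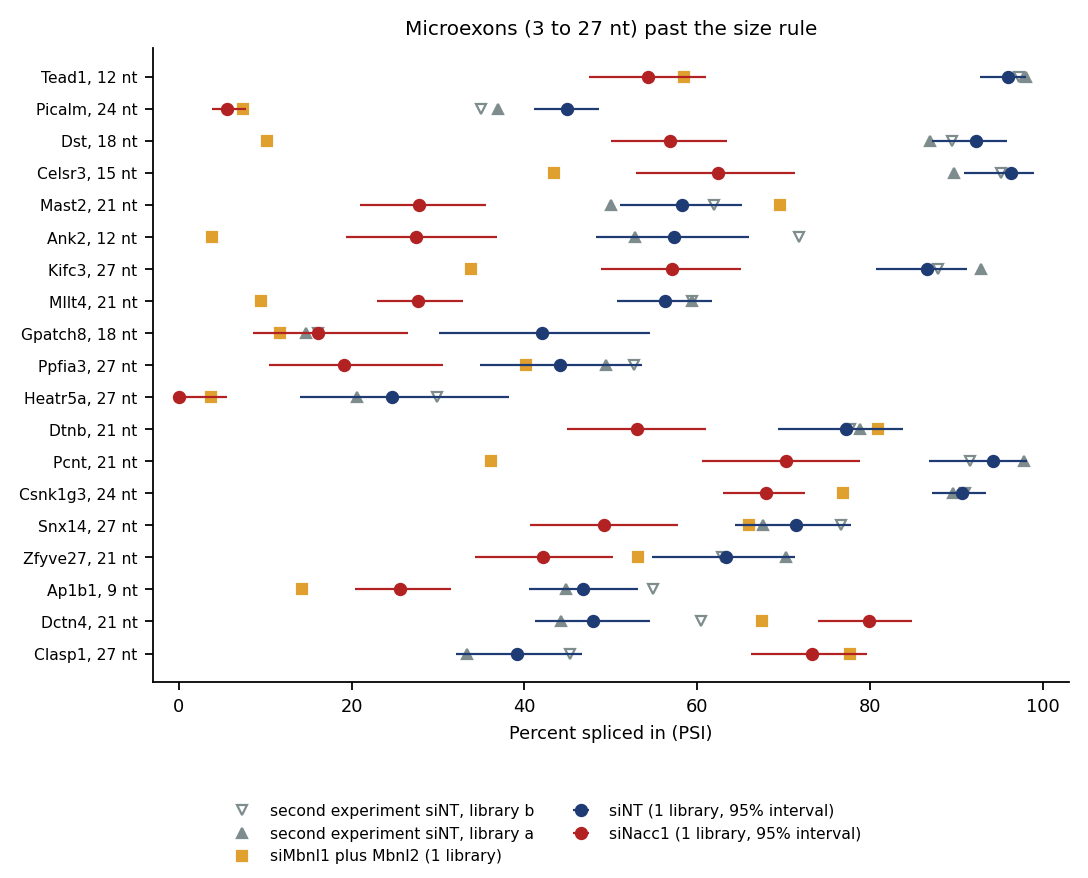
PSI of 19 microexons past the size rule, ordered from the largest fall to the largest rise, with the same symbols as in the plot of the largest exon differences. The red point lies below every control for 16 of the 17 lower exons shown, the exception being Gpatch8, and above every control for Clasp1 and Dctn4. Its distance from siNT is part of the rule by which the exons were chosen.

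Exons whose length is a multiple of 3, which keep the reading frame, made up 68.1% of the exons past the rule. By class, 124 of 6364 alternative exons divisible by 3 passed (1.95%) and 58 of 9261 others (0.626%), where the controls a and b gave 31 and 32 (0.487% and 0.346%). The share was larger for exons divisible by 3 in both comparisons. By their inclusion in siNT, 89 lower and 38 higher exons were among the 2233 with a PSI of 20 to 80 (5.69%), 47 lower ones among 10073 above 80 and 8 higher ones among 3319 below 20. The last 2 classes can pass in 1 direction only, since the rule needs 20 points.

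**Figure D5:**
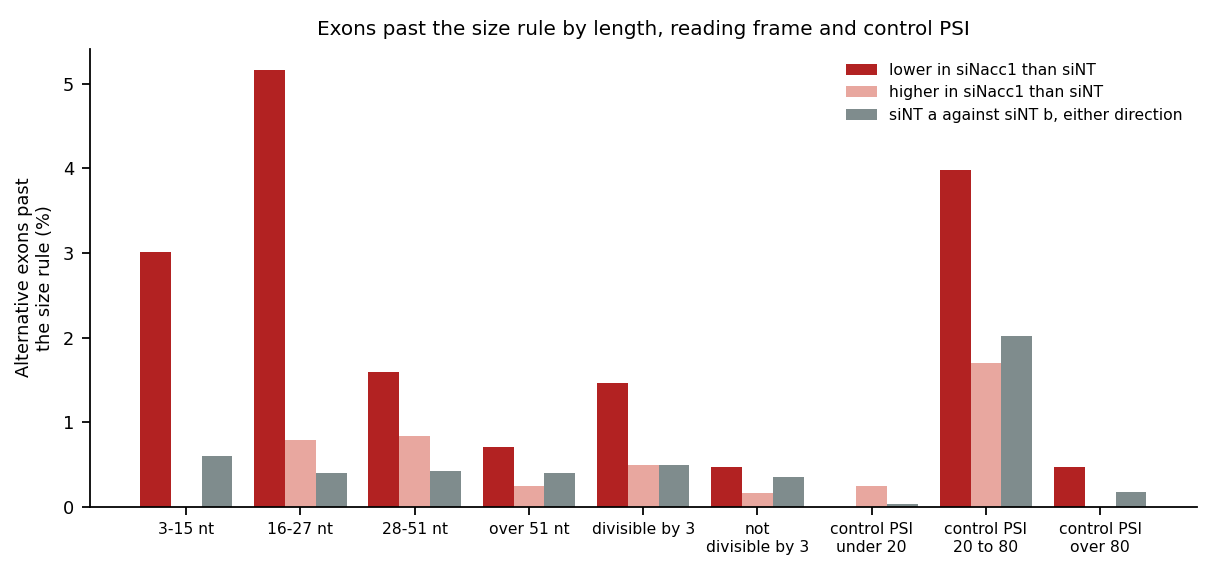
Share of alternative cassette exons past the size rule by exon length, by divisibility of the length by 3 and by PSI in siNT, as bars from 0. Dark red is lower and light red higher in siNacc1, and grey is control a against control b in either direction. The tallest bar is the lower exons of 16 to 27 nt, at 5.16%, and the grey bars of the 4 length classes stay below 1%.

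Of 160 measured genes with an exon past the rule, 3 also passed as genes (1.88%), all lower: Ctla2b, Eno2 and Fkbp7. This stands beside 3.39% of all genes measured. The median of the 160 was a log2 fold change of -0.05. Uap1 was at -0.33, Numa1 at 0.33, Itga6 at -0.08, Picalm at -0.21, Tead1 at -0.14 and Dnm2 at 0.29, so none of these hosts of large exon differences passed as a gene. Eno2 had 2 exons lower, and both also passed between the controls a and b.

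Among retained introns past the rule, 69 were higher and 40 lower. Of 90996 introns measured these are 0.0758% and 0.044%, or 0.12% in all, and 77 of 86877 passed between the controls a and b (0.0886%), so the number is close to that between 2 libraries of 1 condition. Of those also measured in the second experiment, 56 of 59 higher introns and 13 of 30 lower ones lay outside both of its controls. The difference from siNT is part of the rule itself, and the same share over all measured introns was not computed. In introns such as those of Tnip2 and Epb4.1l2 both controls lay below siNT, and in that of Doc2a above it. Controls below siNT place higher introns outside and lower ones inside, so the 2 shares are not comparable. An intron of 575 nt in Ankrd26 was retained at 65.4% (52 to 77.1) against 9.99% (2.33 to 25.5), with 6.89% and 13.6% in the controls. The 2519-nt intron that ends at the Picalm microexon (mm9 chr7:97340264-97342782) stood at 77% against 24%, with 8.54% and 20.5% in the controls. Its spliced reads join the microexon, so the share restates the lower inclusion: 21.9 spliced and 73.2 retained reads stood beside 299 and 94.2 in siNT. A 666-nt intron of the transcription factor Zfp143 stood at 51.4% against 2.22%. Tmem87b (45.3 points), Epb4.1l2 (44.3) and A430105I19Rik (43.4) followed, and the introns of Tmem87b and Epb4.1l2, like that of Picalm, border an exon that was lower. The largest fall, in Celsr3, was from 70.7% to 9.46%, over an intron that contains the gene's 15-nt microexon, with 14.5% in siMbnl1/Mbnl2. Its controls a and b stood at 14.2% and 66.7%, but on 4 and 15 reads, below the minimum of 20. The spliced reads of this intron skip the microexon, so its share is not separate from the lower inclusion. In siNacc1 47.1 spliced and 4.92 retained reads stood beside 10.2 and 24.8 in siNT. Falls of 33.5 to 38.5 points in Prrt3, Phyhd1, Rmi1, Zfp248 and C630004H02Rik completed the 6 largest. In Zfp248 both controls (15.2%) stood with siNacc1 (16.4%) and not with siNT (50.2%), and so did those of C630004H02Rik (7.47% and 17.4%, with 16.4% in siNacc1 and 49.9% in siNT). In 7 of these 12 introns, Ankrd26, Picalm, Zfp143, Prrt3, Rmi1, Zfp248 and C630004H02Rik, reads at both ends were unequal in siNacc1, siNT or both, by the authors' deposited imbalance value (0.05 or below). Outside these 12, lower introns of Arhgap33, Smpd4, Nfya and Strada contain an exon that was lower. Higher introns of Adam23, Tsc2 and Plod2 border such an exon. How many of all introns past the rule restate an exon difference in this way was not counted.

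For alternative splice sites the share past the rule was close to that between the controls. Of 24932 groups of competing sites, 13 were higher and 6 lower (0.0521% and 0.0241%, or 0.0762% in all), and 18 of 24472 groups passed between a and b (0.0736%). The use of a 3' site in Cyp4f16 was 100% in siNacc1 and 39.7% in siNT, on 32 and 24 reads. Sites in Baz2b (44.5 points), a bromodomain protein, Eps15 (36.2), an endocytic adaptor, Depdc5 (34.4), a brake on mTORC1, and Zfp661 (33.6) were the next most used in siNacc1. Of these, the site in Zfp661 was at 0% and 34.3% in the controls a and b, on only 12 reads in each. The largest falls were in Map4k5 (-53.1), Ptma (-33.0), Epn2 (-24.6), Rdbp (-21.3) and Tradd (-21.3), and in Ptma the controls stood at 100% and 31.4%.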

How the data were processed

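PolyA RNA of N2A cells was compared between 1 siNacc1 and 1 siNT library. Per the submitters' processing notes the build was mm9 and the tools included CASAVA 1.8 and edgeR, with no role stated; the sources used here name no aligner or counter. The authors deposited raw read counts per gene for 21553 genes, cRPKM (RPKM corrected for mappable length, per the file headers) and log2 fold changes against siNT. Splicing values are vast-tools output per the series design text: deposited PSI in percent, and a quality cell (other text) whose end holds inclusion and exclusion reads, per the file headers. 29 further columns of per-library values were not used.

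PSI was recomputed from those reads (median difference from the deposited percent 0.000244 points for exons). Counts were scaled with TMM factors (edgeR 4.0.16, R 4.3.3) over the 3 libraries of the first experiment, and fold changes use a prior count of 2 per gene. Intervals are 95%: exact Poisson for CPM, exact binomial for ratios of counts, Clopper-Pearson for PSI. Reads carry no molecular identifiers, so intervals cover counting error only. Total counts were 45633036 and 48505982 in the controls a and b of the second experiment, whose columns carry letters where the labels carry numbers. The size rules are stated in the report; they were tested on simulated data. Own fold changes differed from the authors' deposited log2 values by a median of 0.00624.

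The named genes were Nacc1, Nacc2, Mbnl1, Mbnl2, Srrm4, Srrm3, Ptbp1, Ptbp2 and Zfp871, the 15 higher and 15 lower genes whose ratio interval lay furthest from no change, and per list up to 4 members past the rule or the 2 largest where none passed. Named exons were the 10 largest rises and falls, all of 3 to 27 nt past the rule, and those in splicing factor and Mbnl target genes, of which a few genes are not reported here; introns were the 6 and splice sites the 5 largest each way. The comparison, members, lists and thresholds were chosen with earlier results of these data known. Alternatives varied scaling (DESeq2 1.42.0 size factors), count and read minima, prior count, thresholds and the reference.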

Additional observations from a re-analysis of the deposited data

How the results depend on the processing

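No paired analysis was possible because the first experiment has 1 library per group and no replicate number, and for the same reason no replicate could be left out. Genes past the size rule numbered 392 and stayed between 345 and 403 with DESeq2 size factors, total counts or other prior counts. They numbered 651 with a minimum of 10 counts (131 higher, 520 lower), 1274 with no minimum (517 higher, 757 lower), 259 with a minimum of 200, 115 at a log2 fold change of at least 1.5 and 219 where the bound of the ratio interval had to reach 2-fold. Without the genes that pass between the controls a and b they were 289, and without the glycolysis and hypoxia list 382, both chosen after seeing the data. Cassette exons numbered 182, and 104 with at least 100 reads, 299 at 15 points and 68 at 30 points. Retained introns numbered 109, and 70 with 50 reads, 173 at 15 points and 58 with balanced reads at both ends (junction imbalance p over 0.05 in both libraries, chosen after seeing the data). Groups of alternative splice sites numbered 19, and 9 with 50 reads and 29 at 15 points. Fewer or more events entered under each of these minima and thresholds by construction. Against the mean of the second experiment's controls, the PSI difference of the Gpatch8 microexon was 0.72 points and that of a 91-nt exon of Clk1 -5.15, both reversed from the difference against siNT (-25.9 and 21.1), and the cause was not tested. Of the other 55 exons chosen by rule, 45 moved by no more than the counting interval of siNacc1 and 10 differed by more, with the same sign. With 1 library a side, differences between cultures, preparations and the knockdown cannot be told apart.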

Other observations

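Some abundant transcripts outside the rule for named genes stood apart in siNacc1 and are given here after their values were seen. Eif2s2, the beta subunit of translation initiation factor 2, had 7989 counts in siNacc1 and 26944 in siNT, with 22199 in siMbnl1/Mbnl2 and 18942 and 19343 in the smaller libraries of control a and b. Its log2 fold change of -1.69 lies beside 0.03 between those controls. Enc1, an actin-associated protein of neurons (-1.45), Vat1l (-1.39), the galectin Lgals1 (-1.47) and the membrane protein Myadm (-1.38) were also lower, while the controls a and b differed in these 4 genes by 0.06 to 0.31. Among the higher genes, Igfbp5, a binding protein for insulin-like growth factors, stood at 28.7 CPM against 12.9 in siNT, 9.20 in siMbnl1/Mbnl2, 5.72 in control a and 8.49 in control b. Il17rd, an inhibitor of fibroblast growth factor signalling, stood at 51.3 CPM against 25.7, 18, 17.9 and 18.6 in the same order.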
